A study of Homo sapiens with 8 samples.

Results

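The transcription factor ATF4 and 9 stress regulators that act with it or are switched on by it were followed in NCI-H1975 cells: CEBPB, CEBPG and DDIT3, ATF3 and JDP2, TRIB3, CHAC1, NUPR1 and PPP1R15A. The 10 genes were taken by name, 1 probe set each, out of 19775 genes measured, and 10 of 10 had a probe set of their own. These cells are an established line, from a human lung adenocarcinoma, and carry a mutant EGFR receptor. RNA came from cultures held for 24 hours in 1 of 8 conditions, with 1 Affymetrix Human Genome U133 Plus 2.0 array for each. The conditions were 2 mM L-histidinol together with 10 nM osimertinib, with 1 µM alpelisib, with both drugs or with DMSO vehicle, and the same 4 treatments without L-histidinol. Osimertinib blocks mutant EGFR covalently, alpelisib is an inhibitor of PI3K alpha, and L-histidinol competes with histidine for its tRNA synthetase. The line is a single cell line in culture, no condition was repeated, and nothing in the labels says that the arrays came from separate experiments, so p-values measure only the spread between these arrays.

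When charged tRNA runs short, the kinase GCN2 (gene EIF2AK4) phosphorylates the initiation factor eIF2, which slows most protein synthesis but raises translation of ATF4. ATF4 is a basic leucine zipper (bZIP) protein that pairs with C/EBP proteins on composite DNA sites and turns on genes for amino acid supply and for its own partners and brakes. Much of its control lies in translation and protein turnover, which arrays do not measure. RNA was taken from whole cultures, so a higher level in every cell and a higher level in some of the cells cannot be told apart.

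Annotated promoter windows, from 250 bases before to 50 bases after a start of transcription (RefSeq, GRCh38.p14), were found for 9 of the 10 genes, 18 windows in all. NUPR1 was not matched. The windows were searched on both strands for TGATGNAA, the core of the composite C/EBP-ATF site. It was found in 4 of the 9 genes, against 4.46% of the 27305 genes with a window and 6 of the 29 further ATF4 target genes with one. The CRE TGACGTCA, which ATF proteins bind, was found in 1 of the 9 genes and in 2.25% of all genes. The pattern TGANTCA, a loose form of the AP-1 site that JDP2 can bind, was found in 1 of the 9, DDIT3 (as TGACTCA), and in 9.37% of all genes. In windows rather than genes, the composite core was in 4 of the 18 windows and in 3.62% of 35116. No matches of different patterns overlapped in the 18 windows. The windows that hold the composite core or the CRE are printed because they show where these letters stand in genes whose transcripts rose together with L-histidinol, with each match in capitals. Positions count from the start of transcription, negative before it. In CHAC1 (chr15:40953221-40953520, plus strand) the core lies on the opposite strand, at -209 to -202. In CEBPG (chr19:33373863-33374162, plus strand) it lies at -42 to -35 and in JDP2 (chr14:75427772-75428071, plus strand) at -16 to -9. In ATF3 (chr1:212565157-212565456, plus strand) it lies at -191 to -184, and in PPP1R15A (chr19:48872171-48872470, plus strand) the CRE lies at -58 to -51.
CHAC1: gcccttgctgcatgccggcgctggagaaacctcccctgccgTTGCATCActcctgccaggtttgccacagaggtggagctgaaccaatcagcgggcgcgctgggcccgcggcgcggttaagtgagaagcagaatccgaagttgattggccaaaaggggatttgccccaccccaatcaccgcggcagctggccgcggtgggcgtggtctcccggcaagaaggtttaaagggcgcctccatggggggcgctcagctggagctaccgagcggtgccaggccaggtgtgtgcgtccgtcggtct
CEBPG: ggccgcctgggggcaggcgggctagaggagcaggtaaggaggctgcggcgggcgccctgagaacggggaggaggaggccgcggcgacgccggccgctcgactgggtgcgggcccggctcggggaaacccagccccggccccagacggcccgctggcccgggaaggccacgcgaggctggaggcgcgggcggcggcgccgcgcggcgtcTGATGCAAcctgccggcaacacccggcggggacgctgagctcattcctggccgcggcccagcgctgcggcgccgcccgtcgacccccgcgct
JDP2: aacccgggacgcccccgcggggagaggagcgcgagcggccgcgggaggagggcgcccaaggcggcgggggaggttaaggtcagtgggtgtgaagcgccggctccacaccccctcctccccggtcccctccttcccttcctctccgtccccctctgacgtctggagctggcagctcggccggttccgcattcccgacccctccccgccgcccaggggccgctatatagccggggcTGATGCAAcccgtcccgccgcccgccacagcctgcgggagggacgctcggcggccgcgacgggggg
ATF3: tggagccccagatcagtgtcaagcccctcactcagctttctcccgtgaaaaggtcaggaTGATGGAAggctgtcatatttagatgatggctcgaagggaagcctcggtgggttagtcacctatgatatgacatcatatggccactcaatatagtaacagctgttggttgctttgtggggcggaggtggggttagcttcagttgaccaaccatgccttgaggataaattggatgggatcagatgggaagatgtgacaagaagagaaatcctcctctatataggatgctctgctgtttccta
PPP1R15A: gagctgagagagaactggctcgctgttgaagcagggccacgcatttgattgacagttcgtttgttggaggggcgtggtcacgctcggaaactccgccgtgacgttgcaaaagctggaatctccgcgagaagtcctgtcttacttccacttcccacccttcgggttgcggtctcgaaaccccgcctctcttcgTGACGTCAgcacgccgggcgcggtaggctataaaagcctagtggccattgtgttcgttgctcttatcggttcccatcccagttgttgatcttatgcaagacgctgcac

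**Figure D1:**
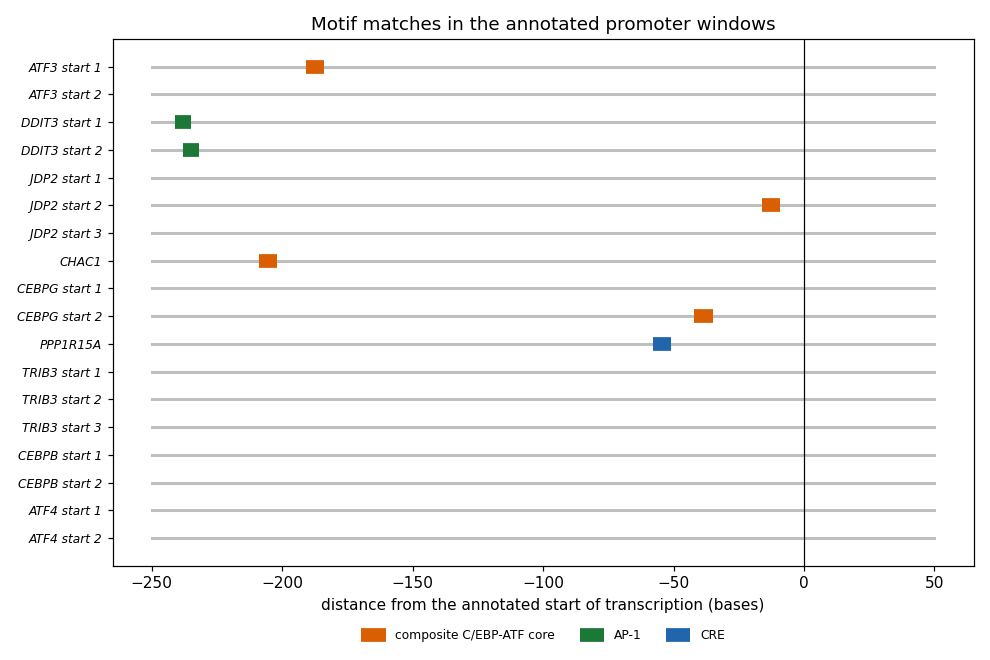
Each grey line is 1 annotated promoter window, drawn by distance in bases from its start of transcription (vertical line), and coloured blocks are matches to the 3 patterns on either strand. Genes with several annotated starts have 1 line per start. The composite C/EBP-ATF core lies in 1 window each of ATF3, JDP2, CHAC1 and CEBPG, the CRE in PPP1R15A and the AP-1 pattern in the 2 windows of DDIT3.

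The core of CHAC1, CEBPG and JDP2 reads TGATGCAA and that of ATF3 reads TGATGGAA. A match of letters is a description of these windows, which are short, and binding was not measured.

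Median intensity lay between 21.8 and 22.4 on the 8 arrays, and r between any 2 arrays was 0.974 to 0.996. All 7 epithelial markers were well expressed, with mean log2 intensities of 8.53 to 13.06. Of 10 measured markers of other cell types, 9 had means between 2.17 (LUM) and 5.38 (PDGFRB), with the blood marker PTPRC at 2.82, the endothelial marker CDH5 at 2.71 and the fibroblast gene COL3A1 at 2.83. COL1A1 was the exception at 9.14. The log2 levels of these 10 summed to 42.3 to 45.5 on the arrays with L-histidinol and 42.4 to 46.3 on those without. They summed to 45.5 to 46.3 with both drugs, against 42.3 to 42.4 with vehicle, where COL1A1 (1.53), LUM (1.23) and CDH5 (0.78) rose with both drugs. With L-histidinol 4 of the 7 epithelial markers and COL1A1 fell, and with both drugs 5 of the 7 epithelial markers rose. The ratio of 3′ to 5′ signal from ACTB controls, a measure of RNA quality, was 1.10 to 1.15 on arrays with L-histidinol and 1.04 to 1.07 on those without. For GAPDH it was 0.966 to 0.982 with L-histidinol and 0.978 to 1.01 without. The part of these shifts in the results was not tested. Values below are log2 intensities, which compare arrays for 1 gene and not genes with each other, and effects are log2 differences ± standard error from limma over all genes. A gene was called when its adjusted p was below 0.05. With 1 array per condition, that error comes from the departure from added effects of L-histidinol and drug, and having 8 arrays sets its precision. For these effects the gene's own departure (3 residual degrees of freedom) is pooled with a prior drawn from all genes (8.08 degrees of freedom). The error is thus not the gene's own spread alone. The SD of the 4 responses to L-histidinol was 0.67 for NUPR1, 0.49 for CHAC1 and 0.03 for ATF3, further apart than their errors below.

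L-histidinol against its absence, in 4 pairs of arrays matched for drug, asked what amino acid stress does to these regulators. All 10 rose, each in 4 of 4 pairs, against 11.4% of all genes called higher. Their median difference was 0.88, against a median of -0.01 over all genes. The largest were those of CHAC1 and NUPR1, and DDIT3 had the smallest. For 7 of the 10, every array with L-histidinol lay above every array without it, which held for 4.53% of all genes. The exceptions were ATF3, DDIT3 and NUPR1, whose levels with the drugs alone reached those with L-histidinol.

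**Figure D2:**
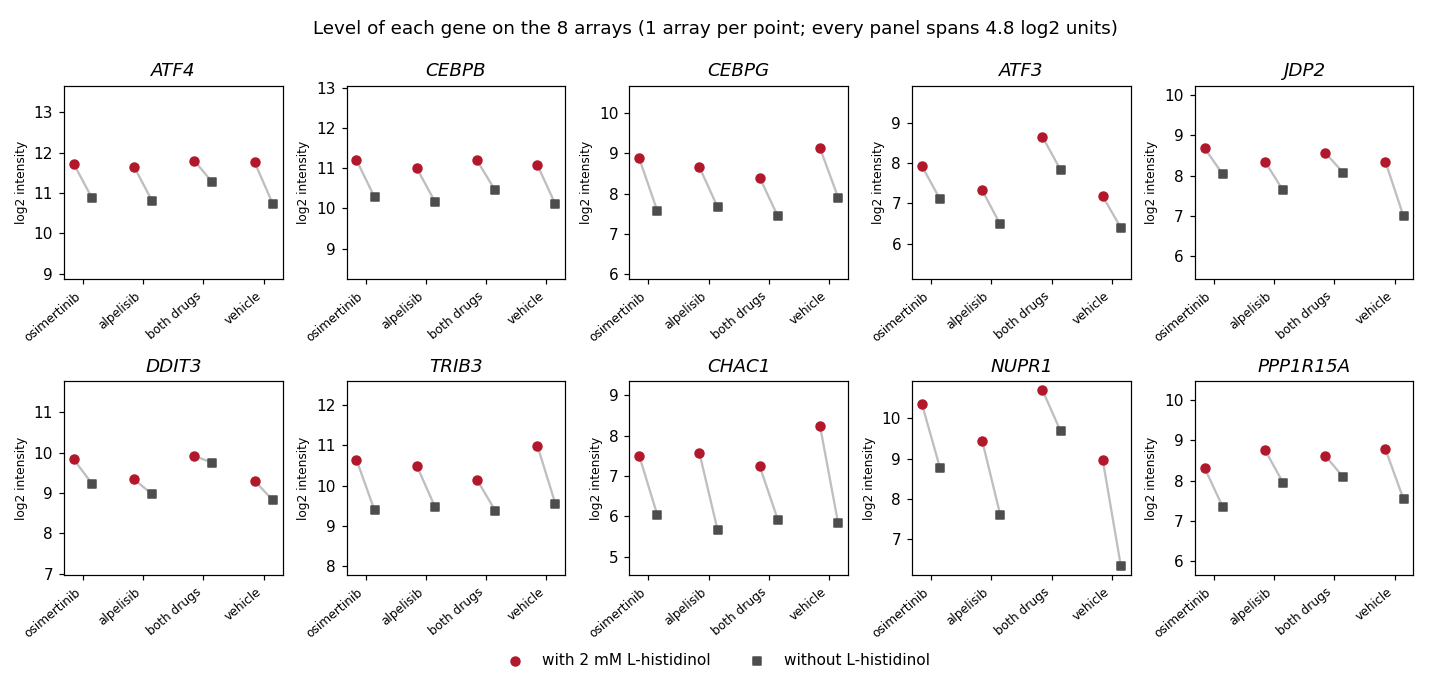
Each panel is 1 gene, with log2 intensity on the vertical axis and the 4 drug treatments on the horizontal axis. Red circles are the arrays with L-histidinol and grey squares the arrays without it, 1 array per point, and grey lines join the 2 arrays of a drug treatment. In all 10 panels and all 4 treatments the red circle is the higher of the pair.

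ATF4 itself measured 11.72 with osimertinib, 11.65 with alpelisib, 11.80 with both drugs and 11.76 with vehicle in the presence of L-histidinol, against 10.88, 10.80, 11.26 and 10.73 for the same treatments without it. The 4 arrays with L-histidinol lay within 0.15 of each other, and the groups did not overlap. The fitted rise was 0.82 ± 0.06 (adjusted p = 2.1e-05).

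C/EBP proteins are the partners with which ATF4 pairs. CEBPB, which encodes C/EBP beta, measured 11.20 with osimertinib, 11.00 with alpelisib, 11.19 with both drugs and 11.08 with vehicle in the presence of L-histidinol, against 10.28, 10.17, 10.45 and 10.10 without it. It rose by 0.87 ± 0.05 (adjusted p = 1.8e-06), and the groups stood apart by more than the spread within either. CEBPG encodes a short C/EBP protein that lacks an activation domain of its own and pairs with ATF4. It measured 8.88 with osimertinib, 8.65 with alpelisib, 8.39 with both drugs and 9.13 with vehicle in the presence of L-histidinol, against 7.58, 7.67, 7.44 and 7.90 without it. It rose by 1.12 ± 0.07 (adjusted p = 3.6e-06), and in both groups the array with both drugs was the lowest and the vehicle array the highest. A second CEBPG probe set gave 0.92 (adjusted p = 3.0e-06), but not this order of drug treatments. In it the highest level was that with both drugs without L-histidinol (7.515) and that with osimertinib in its presence (8.347).

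DDIT3 encodes CHOP, which pairs with C/EBP proteins and is tied to cell death in prolonged stress. It measured 9.83 with osimertinib, 9.34 with alpelisib, 9.92 with both drugs and 9.30 with vehicle in the presence of L-histidinol, against 9.24, 8.97, 9.75 and 8.82 without it. The groups overlapped, because both drugs alone gave a higher level than L-histidinol with vehicle or with alpelisib. Its rise of 0.40 ± 0.06 (adjusted p = 0.0013) put it at place 557 of 19775 genes by size of the rise.

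ATF3 and JDP2 encode bZIP proteins that bind CRE and AP-1 sites and often repress. ATF3 measured 7.92 with osimertinib, 7.33 with alpelisib, 8.65 with both drugs and 7.17 with vehicle in the presence of L-histidinol, against 7.11, 6.47, 7.83 and 6.39 without it. L-histidinol added 0.82 ± 0.06 (adjusted p = 1.0e-05), and its 4 responses of 0.78 to 0.85 were the most even of the 10 genes (SD 0.03, n = 4 backgrounds). The other ATF3 probe sets gave 0.35 (adjusted p = 0.0032) and, near a level of 5, -0.10 (adjusted p = 0.45). The responses of the first of these were less even, 0.28 larger with both drugs than with vehicle.

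JDP2 measured 8.69 with osimertinib, 8.35 with alpelisib, 8.57 with both drugs and 8.35 with vehicle in the presence of L-histidinol, against 8.04, 7.64, 8.08 and 6.99 without it. The vehicle array without L-histidinol stood below the other 7, and the rise over the 4 pairs was 0.80 ± 0.11 (adjusted p = 6.1e-04). Its other, dimmer probe set gave 0.28 (adjusted p = 0.13).

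The remaining genes are effectors and brakes. TRIB3, a pseudokinase that restrains ATF4 and CHOP, measured 10.64 with osimertinib, 10.49 with alpelisib, 10.14 with both drugs and 10.99 with vehicle in the presence of L-histidinol, against 9.38, 9.48, 9.38 and 9.54 without it. It rose by 1.12 ± 0.09 (adjusted p = 2.1e-05), and its second probe set gave 1.26 (adjusted p = 1.2e-05). The 4 arrays without L-histidinol lay within 0.16 of each other, whereas those with it spread over 0.85.

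CHAC1, an enzyme that breaks down glutathione, measured 7.50 with osimertinib, 7.57 with alpelisib, 7.24 with both drugs and 8.23 with vehicle in the presence of L-histidinol, against 6.04, 5.66, 5.92 and 5.83 without it. It rose by 1.78 ± 0.14 (adjusted p = 2.3e-05), which is 3.42-fold, the fifth largest rise of all genes. The vehicle array with L-histidinol stood above the 3 with L-histidinol and a drug.

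NUPR1, a small chromatin-associated stress protein, measured 10.36 with osimertinib, 9.45 with alpelisib, 10.70 with both drugs and 8.97 with vehicle in the presence of L-histidinol, against 8.77, 7.61, 9.69 and 6.34 without it. It rose by 1.77 ± 0.18 (adjusted p = 1.1e-04). Its levels followed the same order of drug treatments in both groups, vehicle lowest and both drugs highest, and the groups overlapped.

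PPP1R15A encodes GADD34, which brings a phosphatase to eIF2 and so reverses the signal upstream of ATF4. It measured 8.32 with osimertinib, 8.77 with alpelisib, 8.62 with both drugs and 8.78 with vehicle in the presence of L-histidinol, against 7.35, 7.95, 8.09 and 7.54 without it. It rose by 0.89 ± 0.09 (adjusted p = 1.1e-04), and its second probe set gave 0.96 (adjusted p = 2.7e-05). The osimertinib array was the lowest of its group both with and without L-histidinol.

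The size of the L-histidinol response was then set side by side in the 4 drug backgrounds, each a difference of 2 single arrays without a replicate check. The median response of the 10 genes was 0.94 with osimertinib, 0.85 with alpelisib, 0.75 with both drugs and 1.23 with vehicle, while the medians over all genes lay within 0.01 of 0. For 9 of the 10 genes the response was smallest with both drugs, as it was for 25.4% of all genes. For 7 of the 10 it was largest with vehicle, as for 26.5% of all genes. ATF3 was the exception to the first count, and ATF3, CEBPG and DDIT3 to the second.

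**Figure D3:**
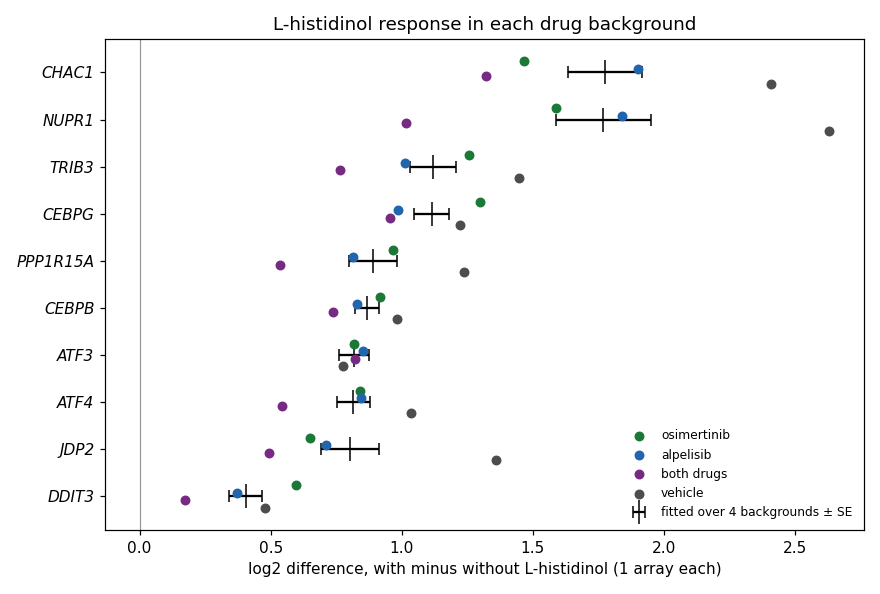
Coloured points give the log2 difference with minus without L-histidinol in each drug background (1 array on each side), and black marks give the value fitted over the 4 backgrounds ± standard error. The purple points (both drugs) lie left of the other 3 colours for 9 of the 10 genes, and the 4 points of ATF3 lie together.

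NUPR1 was higher with L-histidinol by 1.59 with osimertinib, 1.84 with alpelisib, 1.02 with both drugs and 2.63 with vehicle, the last being 6.19-fold. CHAC1 was higher by 1.47, 1.90, 1.32 and 2.41 in the same order, the last being 5.30-fold. JDP2 was higher by 0.65, 0.71, 0.49 and 1.36. In these 3 genes the response with vehicle stood clear of the other 3 responses. In the dimmer JDP2 probe set it did not, with levels rising from 4.123 to 4.446 with vehicle and from 4.186 to 4.909 with osimertinib. TRIB3 was higher by 1.26 with osimertinib, 1.01 with alpelisib, 0.76 with both drugs and 1.45 with vehicle. PPP1R15A was higher by 0.97, 0.81, 0.54 and 1.24, and ATF4 by 0.84, 0.85, 0.54 and 1.03. For ATF4, TRIB3 and PPP1R15A the responses to L-histidinol with a single drug lay between those with both drugs and with vehicle. CEBPB was higher by 0.92, 0.83, 0.74 and 0.98, CEBPG by 1.30, 0.98, 0.96 and 1.22, and DDIT3 by 0.60, 0.37, 0.17 and 0.48. Over the 4 backgrounds the SD of these 3 genes was 0.11, 0.17 and 0.18.

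In the fit with all 2-way terms, 0 of the 10 genes were called for the interaction of L-histidinol with osimertinib, and 0 for that with alpelisib, by limma with the variance prior of the additive fit. At an unadjusted level of 0.05 the counts were 6 and 7 of 10, against 8.36% and 5.05% of all genes, and 8 and 9 of the 10 estimates were negative. With the prior estimated from that fit itself, 4 genes were called for osimertinib (ATF4, JDP2, CHAC1 and NUPR1) and 5 for alpelisib (ATF4, JDP2, TRIB3, NUPR1 and PPP1R15A), each with a smaller response under the drug. A single residual degree of freedom stands behind either version.

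The response with both drugs minus that with vehicle, a contrast added after the values had been seen, had a median of -0.59 over the 10 genes and 0.02 over all genes. NUPR1 was the 1 gene called (-1.61 ± 0.15, adjusted p = 0.019), against 0.0455% of all genes called lower. Over the 7 alternatives tried for it, its adjusted p ranged between 2.0e-21 and 0.56, and it was called in 3 of them. CHAC1 (-1.09 ± 0.21, adjusted p = 0.12), JDP2 (-0.87 ± 0.20, adjusted p = 0.19), PPP1R15A (-0.70 ± 0.16, adjusted p = 0.19), TRIB3 (-0.68 ± 0.13, adjusted p = 0.11) and ATF4 (-0.49 ± 0.11, adjusted p = 0.19) were not called. For ATF3 the difference was 0.04 with a 95% interval from -0.35 to 0.44.

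The spread over the drug treatments was wider with L-histidinol for some genes and narrower for others. In the presence of L-histidinol the 4 drug treatments covered 0.15 log2 units for ATF4, against 0.53 without it. NUPR1 covered 1.74 with L-histidinol and 3.35 without, and JDP2 0.34 with it and 1.09 without. The dimmer JDP2 probe set was not narrower with L-histidinol, with levels of 4.348 to 4.909 against 4.123 to 4.58 without. For TRIB3 the spread was 0.85 with L-histidinol and 0.16 without, for CHAC1 1.00 with it and 0.37 without, and for CEBPG 0.73 with it and 0.47 without. The second CEBPG probe set went the other way, with levels of 8.204 to 8.347 with L-histidinol and 7.251 to 7.515 without. ATF3 covered 1.48 with L-histidinol and 1.43 without. In all, the spread was wider with L-histidinol for 4 of the 10 genes, which is near the share of all genes, 42.1%.

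The drug treatments asked whether inhibiting EGFR or PI3K moves these regulators at all, and here the 10 genes parted. In the probe sets used, NUPR1, ATF3, JDP2 and DDIT3 were higher with osimertinib and with both drugs. CEBPG and TRIB3 were lower with both drugs, and ATF4 and CEBPB were slightly higher with both. Not called for these changes were the second probe sets of CEBPG and JDP2 and the dim one of ATF3. The TRIB3 difference with both drugs was -0.85 with L-histidinol and -0.16 without it. In the fit over both L-histidinol states, osimertinib gave 4 genes higher and 1 lower of 10, against 16.4% and 14.0% of all genes. Alpelisib gave 1 higher and 1 lower, against 7.08% and 4.38%. Both drugs gave 6 higher and 2 lower, against 21.4% and 19.2%. With alpelisib 1 gene of 10 each way is near the share of all genes. So are 1 lower of 10 with osimertinib and 2 lower of 10 with both drugs. The 3 comparisons share the vehicle arrays.

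**Figure D4:**
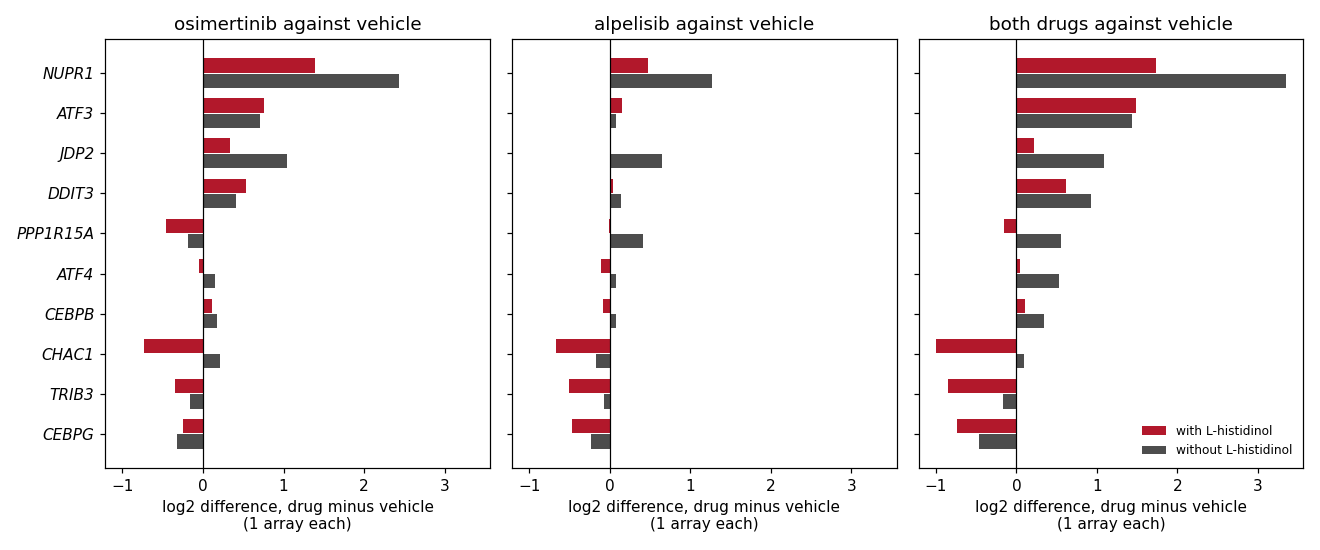
Bars give the log2 difference of 1 drug array minus 1 vehicle array for each gene, with L-histidinol (red, upper bar) and without it (grey, lower bar), in 3 panels for osimertinib, alpelisib and both drugs. NUPR1, ATF3, JDP2 and DDIT3 extend to the right with both drugs in either state, and the red bars of CHAC1, TRIB3 and CEBPG extend to the left in all 3 panels.

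In the presence of L-histidinol NUPR1 differed from vehicle by 1.39 with osimertinib, 0.48 with alpelisib and 1.74 with both drugs. Without L-histidinol the same differences were 2.44, 1.27 and 3.35, the last being 10.2-fold. Over both states it rose by 1.91 ± 0.25 with osimertinib (adjusted p = 1.8e-04) and by 2.54 ± 0.25 with both drugs (adjusted p = 8.4e-06). With alpelisib the value was 0.87 ± 0.25 (adjusted p = 0.049), without the vehicle array it was 0.30 (adjusted p = 0.45), and without the array of L-histidinol and vehicle it was 1.45 (adjusted p = 0.0020). Over its alternatives the adjusted p for alpelisib lay between 3.2e-04 and 0.45.

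In the presence of L-histidinol ATF3 differed from vehicle by 0.75 with osimertinib, 0.16 with alpelisib and 1.48 with both drugs, and without it by 0.71, 0.08 and 1.43. In this probe set the differences were nearly the same in both states. Over both states it rose by 0.73 ± 0.08 with osimertinib (adjusted p = 4.8e-05) and 1.46 ± 0.08 with both drugs (adjusted p = 1.5e-07), while alpelisib alone gave 0.12 ± 0.08 (adjusted p = 0.43). The second ATF3 probe set gave 0.40 with osimertinib (adjusted p = 0.0070) and 0.92 with both drugs (adjusted p = 5.1e-06), and the dim one gave -0.10 and -0.13 (adjusted p = 0.61 and 0.43). With the mean of the 3 probe sets the values were 0.34 (adjusted p = 0.0065) and 0.75 (adjusted p = 5.3e-05). The effect of both drugs exceeded the sum of the single drugs by 0.61 ± 0.12, which was not called (adjusted p = 0.16), nor was that interaction called for any of the 10 genes. At an unadjusted level of 0.05 the interaction counted 5 of the 10, against 9.43% of all genes, and 4 were called with the prior of the 2-way fit itself. Of the 5, ATF3, ATF4 and PPP1R15A lay above the sum of the single drugs. JDP2 (-0.37) and NUPR1 (-0.25) lay below it, and JDP2 was among the 4.

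With L-histidinol DDIT3 differed from vehicle by 0.53 with osimertinib, 0.04 with alpelisib and 0.62 with both drugs, and without it by 0.41, 0.14 and 0.93. It rose by 0.47 ± 0.09 with osimertinib (adjusted p = 0.0019; 0.055 without the array of osimertinib and L-histidinol) and by 0.77 ± 0.09 with both drugs (adjusted p = 2.8e-05). With L-histidinol JDP2 differed from vehicle by 0.34 with osimertinib, 0.01 with alpelisib and 0.22 with both drugs, and without it by 1.05, 0.65 and 1.09. It rose by 0.69 ± 0.16 with osimertinib (adjusted p = 0.0057) and 0.65 ± 0.16 with both drugs (adjusted p = 0.0053). Its dimmer probe set was called for neither (0.26, adjusted p = 0.31, and 0.31, adjusted p = 0.18). Both called values depend on the vehicle arrays. Without the vehicle array, JDP2 gave 0.32 with osimertinib (adjusted p = 0.034) and 0.28 with both drugs (adjusted p = 0.042), and without the array of L-histidinol and vehicle it gave 1.06 and 1.02 (adjusted p = 5.2e-05 and 1.7e-05). Neither call held without the array of that treatment alone (0.59, adjusted p = 0.083, and 0.45, adjusted p = 0.065).

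CEBPG fell by 0.60 with both drugs (± 0.09, adjusted p = 2.9e-04), but its second probe set gave 0.06 (adjusted p = 0.71). Its falls of 0.29 with osimertinib and 0.35 with alpelisib (adjusted p = 0.039 and 0.035) were each lost in 6 of 16 alternatives, with adjusted p up to 0.41. TRIB3 fell by 0.50 with both drugs (± 0.12, adjusted p = 0.0058), and its second probe set gave -0.71 (adjusted p = 0.0016). With L-histidinol TRIB3 differed from vehicle by -0.85 with both drugs, against -0.16 without it, and the call was lost without either of the L-histidinol arrays with vehicle (-0.28, adjusted p = 0.096) or with both drugs (-0.27, adjusted p = 0.076).

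Beside L-histidinol, CHAC1 differed from vehicle by -0.73 with osimertinib, -0.67 with alpelisib and -0.998 with both drugs, and without it by 0.21, -0.16 and 0.09. Over both states it was not called with any drug treatment (-0.26 ± 0.20, -0.42 ± 0.20 and -0.45 ± 0.20 with adjusted p = 0.40, 0.23 and 0.096). Without the vehicle array its values were -0.88 with both drugs, -0.68 with osimertinib and -0.84 with alpelisib, the lowest of 16 alternatives. The highest of them were -0.03, 0.16 and 0.005 in the same order. With osimertinib and with alpelisib the sign changed in 1 alternative each, so a fall in CHAC1 was not settled.

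In the presence of L-histidinol PPP1R15A differed from vehicle by -0.46 with osimertinib, -0.01 with alpelisib and -0.15 with both drugs, and without it by -0.19, 0.41 and 0.55. In the main fit it was not called with any treatment (adjusted p = 0.086, 0.39 and 0.28), though with osimertinib its second probe set was called lower (-0.45, adjusted p = 0.018). Over 16 alternatives its value ran from -0.56 to -0.09 with osimertinib, from -0.03 to 0.44 with alpelisib and from -0.04 to 0.43 with both drugs. ATF4 rose by 0.29 ± 0.09 with both drugs (adjusted p = 0.023) and CEBPB by 0.23 ± 0.07 (adjusted p = 0.016). ATF4 differed from vehicle by 0.04 with L-histidinol and 0.53 without it under both drugs, and CEBPB by 0.10 with it and 0.35 without. Both calls were lost without the vehicle array (ATF4 0.14, adjusted p = 0.30; CEBPB 0.15, adjusted p = 0.16), without the array of both drugs alone (ATF4 0.10, adjusted p = 0.36; CEBPB 0.14, adjusted p = 0.19) and when arrays were centred on their medians (ATF4 0.15, adjusted p = 0.20; CEBPB 0.09, adjusted p = 0.28). ATF4 gave 0.43 (adjusted p = 0.0035) without the array of L-histidinol and vehicle and 0.47 (adjusted p = 2.6e-04) without that of L-histidinol and both drugs. Without a variance trend neither ATF4 nor CEBPB was called with both drugs, and with the mean of probe sets ATF4 was not called. Centring moved all differences by -0.11 with osimertinib, -0.08 with alpelisib and -0.13 with both drugs. Of all genes called, the share called higher was then 35.7% with osimertinib, 32.3% with alpelisib and 36.6% with both drugs, instead of 54.0%, 61.8% and 52.7%.

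Over the 8 arrays, 2 groups of 3 genes were each closely alike and less like each other. Of the other 4 genes, JDP2 was nearer to ATF3, DDIT3 and NUPR1, and PPP1R15A to CEBPG, TRIB3 and CHAC1. The remaining pair, ATF4 and CEBPB, was like both groups. CEBPG, TRIB3 and CHAC1 correlated with each other at r = 0.957 to 0.990, and ATF3, DDIT3 and NUPR1 at r = 0.935 to 0.972. Between these groups of genes r lay between 0.281 and 0.573. ATF4 and CEBPB correlated at r = 0.985 with each other and at 0.716 to 0.922 with all 6. JDP2 was most like NUPR1 (r = 0.951) but also reached 0.737 with CHAC1 and 0.881 with CEBPB, and PPP1R15A reached 0.773 to 0.843 with CEBPG, TRIB3 and CHAC1 and 0.499 to 0.608 with ATF3, DDIT3 and NUPR1. These values describe 8 arrays that share 2 treatments and carry no test, and they use 1 probe set per gene. The second CEBPG probe set, in which the order of drug treatments differed, was left out of them. Among 2071 other genes with a mean log2 of at least 6 and a range of at least 1, the 5 most like ATF4 were the gluconeogenic enzyme PCK2 (r = 0.985), CEBPB, the cysteine tRNA synthetase CARS1, the transsulfuration enzyme CBS and the secreted glycoprotein STC2 (r = 0.968). The 5 most like DDIT3 were KLF11 (r = 0.992), MBD6, XAF1, SPG11 and ZNF277 (r = 0.980). The 5 most like NUPR1 were BICRAL (r = 0.995), PLEKHF1, PHF21A, PTPRM and the bZIP gene ATF2 (r = 0.987). The 5 most like ATF3 were OAZ3 (r = 0.985), MBD6, ZNF277, KDM3A and CAMLG (r = 0.976), so MBD6 and ZNF277 stood in the lists of both DDIT3 and ATF3.

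The pathway around the 10 genes was read from lists. Of all genes, 11.4% rose and 9.17% fell with L-histidinol, and 21.4% rose and 19.2% fell with both drugs, and the counts below stand beside these shares. Of 38 measured further ATF4 target genes, 33 rose with L-histidinol and 1 fell, with a median of 0.80 against -0.01 over all genes. ALDH1L2, a mitochondrial folate enzyme, rose by 2.08 ± 0.21, the asparagine synthetase ASNS by 2.02 ± 0.12, PCK2 by 1.91 ± 0.12 and the serine synthesis enzyme PSAT1 by 1.69 ± 0.05. The ASNS rise rests on 1 of its 2 probe sets, since the other, whose name (unlike those ending in _s_at or _x_at) does not mark possible cross-hybridization, gave 0.08 (adjusted p = 0.69) and their mean 1.05 (adjusted p = 0.0011). The 1 that fell was ATF5, a bZIP factor that is itself under ATF4 control (-0.31 ± 0.09, adjusted p = 0.025), and with the mean of its probe sets it was not called (-0.22, adjusted p = 0.057). ATF5 was lower with L-histidinol by 0.38 with osimertinib, 0.22 with alpelisib, 0.07 with both drugs and 0.56 with vehicle. The list median of the L-histidinol response was 0.84 with osimertinib, 0.77 with alpelisib, 0.57 with both drugs and 1.01 with vehicle. The 4 backgrounds stood in the same order as for the medians of the 10 regulators. With both drugs against vehicle 8 of the 38 rose, which is near the share of all genes, and 17 fell, median -0.29. KLHL24, a Kelch family gene, rose by 2.73 ± 0.17, while the lipoprotein receptor VLDLR fell by 1.42, PSAT1 by 1.25 and the inhibin subunit INHBE, a dim gene, by 1.13 (adjusted p = 0.023, and 0.051 with the mean of probe sets for all genes). Of the 27 target genes left without the marked probe sets, 20 rose and 0 fell with L-histidinol. The mean of its 3 probe sets gave ALDH1L2 1.19 (adjusted p = 0.0025).

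**Figure D5:**
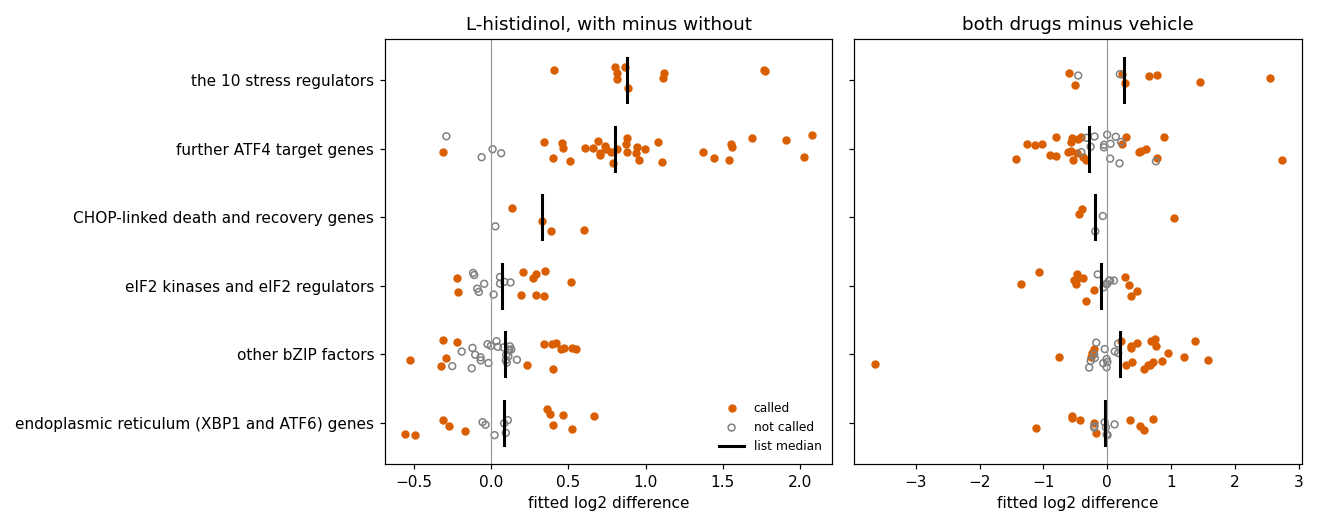
Points are the fitted log2 differences of single genes in the 10 regulators and 5 lists, for L-histidinol (left) and for both drugs against vehicle (right), filled where called and open where not, with the list median as a black bar. With L-histidinol the medians of the 10 regulators (0.88) and the further ATF4 targets (0.80) lie to the right of the other lists, and with both drugs points of every list lie on both sides of 0.

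Of 20 eIF2 kinases, eIF2 and eIF2B subunits and their regulators, 8 rose and 2 fell with L-histidinol, median 0.07, the falls being near the share of all genes. IMPACT, which restrains GCN2, rose by 0.51 ± 0.06 and the mitochondrial protease OMA1 by 0.35 ± 0.06. PPP1R15B, the constitutive counterpart of PPP1R15A, rose by 0.34 ± 0.06 and the eIF2 kinase EIF2AK2 by 0.29 ± 0.07 (0.19, adjusted p = 0.075, with the mean of its probe sets). GCN2 itself, EIF2AK4, differed by -0.04 ± 0.06 (adjusted p = 0.65). With both drugs 4 of the 20 rose, near the share of all genes, and 9 fell, median -0.10, led by the eIF2B subunit EIF2B3 (-1.35 ± 0.10) and EIF2S1, the eIF2 subunit that the kinases phosphorylate (-1.07 ± 0.06). The EIF2S1 value was -0.25 (adjusted p = 0.033) when the marked probe sets were left out. The eIF2B subunit EIF2B2 fell by 0.52 and PPP1R15B by 0.50.

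Of 36 other bZIP factors, 9 rose and 5 fell with L-histidinol, median 0.09, the falls again near the share of all genes. CREB5 rose by 0.55 ± 0.11 and XBP1 by 0.52 ± 0.09 (0.25, adjusted p = 0.055, with the mean of its probe sets), while the AP-1 subunit FOSL1 fell by 0.52. CEBPD, a further C/EBP gene, rose by 0.47 ± 0.06, but without the marked probe sets it was not called (0.31, adjusted p = 0.16). With both drugs 18 of the 36 rose and 5 fell, median 0.19. FOSL1 differed by -3.65 ± 0.09, DBP by 1.58 ± 0.13, CEBPD by 1.37 ± 0.08 and BACH1 by 1.20 ± 0.12. The DBP value was -0.07 (adjusted p = 0.77) without the marked probe sets, and with the mean of probe sets DBP gave 0.75 and BACH1 0.41. Genes of the XBP1 and ATF6 arms of the endoplasmic reticulum stress response gave 6 rises and 5 falls of 17 with L-histidinol, median 0.08, and 4 rises and 6 falls with both drugs, median -0.04, the 4 rises being near the share of all genes. The stress sensor ERN1 rose by 0.67 ± 0.07 with L-histidinol (0.36 with the mean of its probe sets), as did XBP1, while CRELD2 fell by 0.56 and SDF2L1 by 0.49. With both drugs SDF2L1 fell by 1.12 and MANF by 0.56, and HERPUD1 rose by 0.72 ± 0.10 and the co-chaperone DNAJB9 by 0.57 ± 0.09. Without the marked probe sets HERPUD1 gave -0.07 (adjusted p = 0.84) and DNAJB9 0.29 (adjusted p = 0.024). Of 5 measured genes of cell death and recovery tied to CHOP, 4 rose with L-histidinol, median 0.33. The BH3-only gene PMAIP1 rose by 0.60 ± 0.05, the death receptor TNFRSF10B by 0.39 ± 0.05, the BH3-only gene BCL2L11 by 0.33 ± 0.05 and the oxidase ERO1A by 0.14 ± 0.04. With the mean of their probe sets, TNFRSF10B (0.12, adjusted p = 0.17) and ERO1A (0.09, adjusted p = 0.21) were not called and BCL2L11 gave 0.19. With both drugs BCL2L11 rose by 1.05 ± 0.07 (0.27 with the mean of its 7 probe sets), TNFRSF10B fell by 0.39 and ERO1A fell by 0.44 (-0.15, adjusted p = 0.12, without the marked probe sets). PMAIP1 differed by -0.19 (adjusted p = 0.070).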

How the data were processed

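Total RNA of NCI-H1975 cells was labelled with biotin and hybridised to 8 arrays. The deposited values are probe set intensity on a linear scale. Per the submitters' processing notes the authors used RMA and affy, with no version given in the sources. The log2 of each deposited intensity was taken, with no further scaling. Of 54675 probe sets, 62 controls, 1801 with several symbols and 11721 without one were set aside, and symbols came from the platform's annotation (41037 of 41091 probe sets with 1 symbol matched a RefSeq gene number, and 0 symbols changed). Each of 19775 genes was represented by its probe set of highest mean log2, and 5 of the 10 regulators had a single probe set. Their other probe sets were read from a fit over all probe sets with 1 symbol.

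Differences were fitted with limma 3.58.1 (R 4.3.3) as L-histidinol plus drug treatment of 4 levels (3 residual degrees of freedom), with a variance trend on mean intensity and Benjamini-Hochberg adjustment over all genes. Interactions were taken from a model holding every 2-way term (1 residual degree of freedom), moderated with the prior of the additive fit (8.08 degrees of freedom), as the 2-way fit's own estimate (103) rests on 1 residual degree of freedom a gene. The scripts were tested on simulated data. The 10 genes and the 7 lists (133 of 140 entries measured) were chosen with earlier results of these data known, and the additional contrast of both drugs with vehicle after its values were seen. All 10 genes are named, with the 4 genes of each list of largest fitted change for L-histidinol and for both drugs, and the 5 genes most like ATF4, DDIT3, NUPR1 and ATF3. ATF5, EIF2AK4 and marker genes were named after their values were seen. In all, 17 alternatives were run. Tables used Python 3.11.15, numpy 2.4.6, pandas 2.3.3 and matplotlib 3.10.9.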

Additional observations from a re-analysis of the deposited data

How the results depend on the processing

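With L-histidinol, 10 of 10 genes were called in every alternative in which they were measured. NUPR1 has 1 probe set, marked _s_at, and is missing where such probe sets were left out. For both drugs the count of 8 stayed between 6 and 8 when 1 array was left out. For osimertinib, 5 in the main analysis, it was 8 without the vehicle array and 3 without the osimertinib array, and between these otherwise. For alpelisib, 2 in the main analysis, it was 0 with the mean of probe sets and without a variance trend, 1 without the _s_at and _x_at probe sets, centred on the array median or as log2(intensity + 16), 4 with all 2-way terms, and 0 to 3 with 1 array left out (0 without the alpelisib array or its L-histidinol partner). The L-histidinol interactions with osimertinib and alpelisib and that of the drugs, 0 in the main analysis, gave 4, 5 and 4 with the prior of the 2-way fit itself. The response with both drugs minus that with vehicle, 1 in the main analysis, gave 0 with the mean of probe sets, without _s_at and _x_at probe sets, as log2(intensity + 16), over genes with a mean log2 of at least 5 and without a variance trend, and 6 with the prior of the 2-way fit. The causes were not tested. No called difference of a regulator changed sign in these alternatives, though single other probe sets of CEBPG (both drugs) and ATF3 (L-histidinol, osimertinib and both drugs) had the opposite sign, uncalled. Uncalled ones did so 3 times for osimertinib, 8 for alpelisib, 2 for both drugs and 1 for the interaction of L-histidinol with osimertinib. Each leave-out assumes that the lone array of a treatment varies like the others. Each condition has a single array, and interactions rest on 1 residual degree of freedom.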
